A study of Mus musculus with 12 samples.

Results

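The cullins and the Kelch-like proteins build the largest class of ubiquitin ligases in the cell, and their transcripts were followed here in mouse round spermatids with and without IGF2BP3, an RNA-binding protein that reads m6A. Members were taken by gene symbol: every Cul gene with a number and every Klhl or Kbtbd gene with a number, pseudogenes left out. This gave 47 of the 28643 genes in the deposited table, namely 8 cullins, 29 Klhl genes and 10 Kbtbd genes. One of the 47, Kbtbd8os, is a noncoding antisense transcript and encodes no adaptor.

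A cullin is a long scaffold protein. At its carboxyl end it binds a RING protein (RBX1 or RNF7) that brings the ubiquitin-loaded enzyme, and at its amino end it binds an adaptor that brings the substrate. CUL3 takes proteins with a BTB domain directly, and the Klhl and Kbtbd families are BTB proteins whose Kelch repeats hold the substrate, whereas CUL1, CUL2, CUL4A, CUL4B and CUL5 use other adaptors. Klhl10 is the member best known from the testis, where its protein is found in spermatids and where losing even a single copy makes male mice infertile.

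Round spermatids were sorted by flow cytometry, with cycloheximide present to hold ribosomes in place, from 8-week-old male mice that were Igf2bp3+/- (the control) or Igf2bp3-/- (a Cas9 frameshift knockout; by the study's methods, males with impaired fertility were used). Each extract gave total poly(A) RNA (RNA-seq) and RNA bound by 4 or more ribosomes (RNC-seq). There were 3 replicates for each genotype and assay, 12 libraries in all, and values are FPKM, a read density per transcript length and per library. Mice without any Igf2bp3 mutation were not analysed here. Igf2bp3 itself was listed at 33.4 to 38.6 FPKM in Igf2bp3+/- and 31.4 to 32.5 FPKM in Igf2bp3-/- RNA-seq, a level that cannot check the genotype because a frameshift need not remove the transcript.

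Markers of spermatids were high in all libraries, the 5 elongating spermatid markers summing to 8110 FPKM or more. The relative depth, read from the lowest values, was 1 in Igf2bp3-/- RNA-seq replicate 1 and 0.38 to 0.562 in the other libraries, and Igf2bp3+/- RNC-seq replicate 2 had the lowest summed cullin level of its group (37.0 FPKM against 55.2 and 60.9). Markers of other testis cells differed between genotypes: the summed level of the 7 Leydig cell markers was 15.4 to 22.6 FPKM in Igf2bp3+/- and 48.6 to 55 FPKM in Igf2bp3-/- RNA-seq, and in RNC-seq 6.75 to 14.3 and 51.5 to 103 FPKM, with 7 of 7 higher in both assays (4 called by limma in RNA-seq, 1 in RNC-seq). The sum of the 6 macrophage markers was 2.24 to 2.44 and 4.88 to 5.37 FPKM in RNA-seq, with 6 of 6 higher. In RNC-seq it was 0.782 to 1.72 and 3.83 to 6.43 FPKM, with 5 of the 5 tested higher. The part of these cells in the genotype comparisons below was not tested. In RNA-seq the 5 round spermatid markers summed to 487 to 596 and 603 to 739 FPKM, and the 5 blood markers to 6.58 to 7.22 and 11.8 to 14.3 FPKM. In RNC-seq the round spermatid sums were 616 to 782 and 753 to 904 FPKM, and the blood sums 13.6 to 19.2 and 16.6 to 36.4 FPKM. Spermatocyte markers, also 5, summed to 287 to 302 FPKM in Igf2bp3+/- and 281 to 330 FPKM in Igf2bp3-/- RNA-seq. In RNC-seq the spermatocyte sums were 286 to 315 and 268 to 360 FPKM. Sertoli cell markers stayed at or below 1.15 FPKM in sum, peritubular markers at or below 1.47 FPKM and spermatogonial markers at or below 4.06 FPKM in every library, with no marker at 0 in all 12 libraries and Amh not in the table. In bulk RNA, fewer cells of a type and less RNA per cell cannot be told apart.

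Klhl10 stood far above every other member. It lies on chromosome 11 (GRCm38, chr11:100441917-100457022, plus strand), tail to tail with Klhl11 (chr11:100462614-100472741, minus strand). Klhl10 was listed in Igf2bp3+/- RNA-seq at 221.5, 230.5 and 241.7 FPKM, higher than 99% of all genes in mean level. The next member, Cul1, reached 33.2, 32.0 and 28.4 FPKM in the same libraries. Klhl10 alone made up 44.6% to 46.9% of the summed FPKM of the 47 members there. Its ratio to Cul3, the scaffold that BTB adaptors bind, was between 27.1 and 40.9 in these 3 libraries, a ratio of transcript densities and not of proteins.

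The upstream sequences of Klhl10 and Cul3 are shown because the most abundant adaptor and its scaffold differ in promoter CpG content. RefSeq (GRCm38.p6) held a promoter window for 41 of the 47 members. Each sequence runs 5′ to 3′ on the gene's own strand, without exon bases of any gene. That of Cul3 ends directly before its RefSeq start, and that of Klhl10 ends 8 bases before its RefSeq start, where the GENCODE M21 exon begins. For Cul3 the GENCODE M21 start lies further downstream, at chr1:80340480. The capitals mark CpG, the letters CG, which read the same on both strands. For Klhl10 the stretch is chr11:100441809-100441916 (plus strand, 108 bases; upstream of it lie exons of Nt5c3b), and for Cul3 it is chr1:80340691-80340940 (minus strand, 250 bases).
Klhl10: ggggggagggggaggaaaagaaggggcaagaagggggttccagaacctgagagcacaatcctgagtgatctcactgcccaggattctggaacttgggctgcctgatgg
Cul3: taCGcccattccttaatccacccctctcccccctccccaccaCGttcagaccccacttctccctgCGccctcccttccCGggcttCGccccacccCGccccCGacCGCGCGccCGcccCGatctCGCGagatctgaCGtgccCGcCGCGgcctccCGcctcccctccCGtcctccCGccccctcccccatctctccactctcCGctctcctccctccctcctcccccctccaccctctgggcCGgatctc

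The Klhl10 stretch holds no capitals at all, while the Cul3 stretch holds 23 CpG. Over the full 250 bases before the start, Klhl10 had 1 CpG, a count of at most 1 being found in 18.8% of all 32851 promoter windows in the table. Cul3 had 23, and 13.3% of all windows had 23 or more. The 54 windows of the 41 members had a median of 15 CpG, against 6 over all windows, and Klhl10 was the single member with no window above 1 CpG. CpG content is a description of the sequence only.

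Behind Klhl10, 9 members had a mean of 10 to 100 FPKM in Igf2bp3+/- RNA-seq, 20 a mean of 1 to 10 FPKM, 9 a mean of 0.1 to 1 FPKM and 8 a mean below 0.1 FPKM. Neighbours in this order mostly could not be ranked, since the libraries overlapped for 37 of 46 neighbouring pairs. Klhl10 and Cul1 were among the 9 pairs without overlap, as were Klhl12 over Klhl25, Klhl7 over Klhl8, and Cul9 over Cul3. Across all libraries, 38 members were above 0 in each of the 12 and 9 were not. The filter of a mean above 0.1 FPKM kept 39 members for tests in RNA-seq and 37 in RNC-seq, where Klhl36 and Klhl5 also dropped out.

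**Figure D1:**
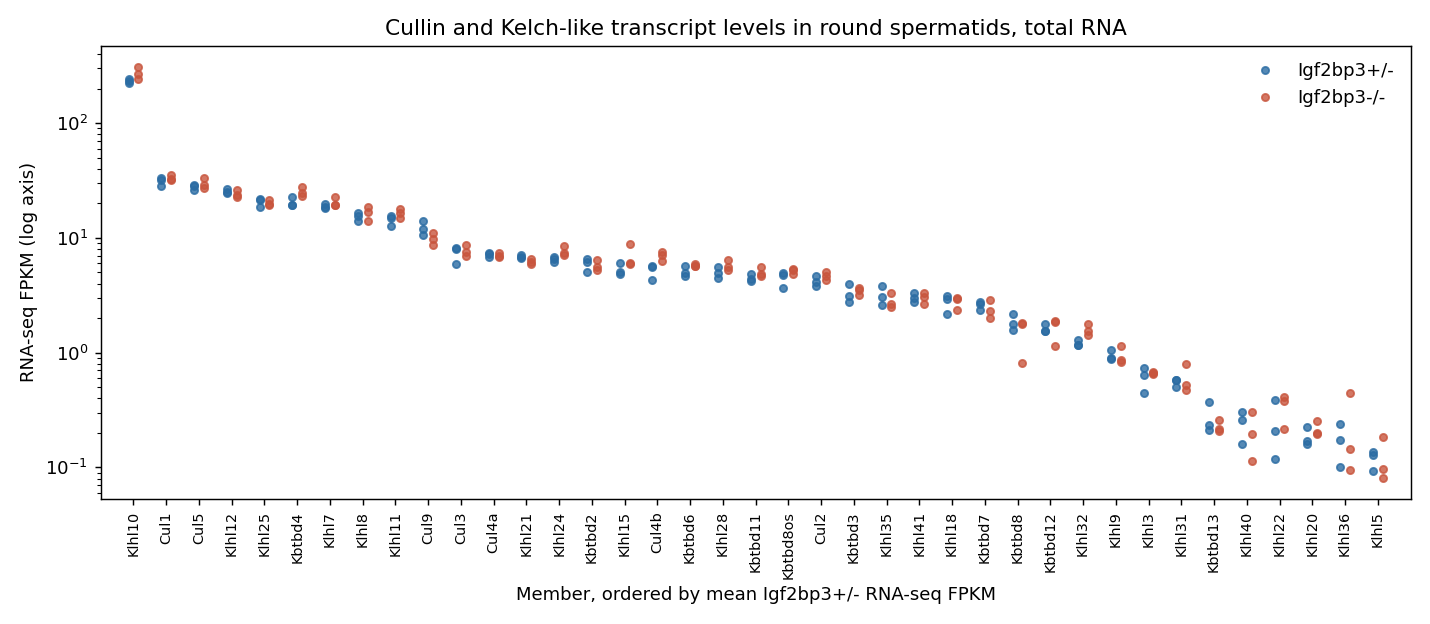
RNA-seq FPKM (log axis) of the 39 members with a mean of at least 0.1 FPKM in Igf2bp3+/-, ordered by that mean, with 1 point per library (blue Igf2bp3+/-, red Igf2bp3-/-). Klhl10 sits between 221.5 and 311.1 FPKM, above all other members in every RNA-seq library.

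Among the scaffolds, Cul1, which works with F-box proteins, and Cul5, which works with SOCS-box proteins, were the most abundant cullins in total RNA. Cul5 was listed in Igf2bp3+/- RNA-seq at 28.3, 28.8 and 26.3 FPKM, overlapping Cul1. Cul9, an unusually long cullin found in the cytoplasm, followed at 10.7, 12.1 and 14.1 FPKM. By its mean Cul3 came behind these 3, at 8.16, 7.94 and 5.91 FPKM, and overlapped Cul4a at 7.32, 7.21 and 6.78 FPKM. Cul4a and its X-linked paralogue Cul4b both use DDB1 as adaptor; Cul4b was listed at 5.60, 5.64 and 4.28 FPKM, below all Cul4a values. Cul2, whose best known receptor is VHL, had the lowest mean of the 7 cullins tested, at 3.79, 4.15 and 4.64 FPKM, and overlapped Cul4b. Cul7 was near the floor at 0.116, 0.0441 and 0.0528 FPKM and, with a mean under 0.1 FPKM, stayed out of the tests given here.

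Among the adaptors behind Klhl10, Klhl12, known for acting on the COPII coat of secretory vesicles, was listed in Igf2bp3+/- RNA-seq at 26.4, 25.2 and 24.5 FPKM. Klhl25 was listed at 18.6, 21.8 and 21.5 FPKM. Kbtbd4, an adaptor linked to histone deacetylase complexes, was listed at 19.5, 19.4 and 22.6 FPKM and overlapped Klhl25. Its value is uncertain, since 55.6% of its exonic bases lie opposite exons of Ndufs3 and Ptpmt1 and the use of strand in counting is not stated.

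Klhl7, mutated in a form of retinitis pigmentosa, was listed at 19.9, 18.6 and 18.3 FPKM in the same libraries. Klhl8 was listed at 14.1, 15.5 and 16.3 FPKM, and Klhl11, the neighbour of Klhl10, at 14.9, 15.5 and 12.6 FPKM. These 2 overlapped each other and lay below Klhl7. Klhl21, which targets Aurora B in mitosis, followed at 6.81, 6.66 and 7.10 FPKM, Klhl24 at 6.22, 6.85 and 6.54 FPKM, and Kbtbd2, a regulator of insulin signalling, at 6.199, 6.535 and 5.05 FPKM. Klhl21 shares 20.5% of its exonic bases and Kbtbd2 5.46% with a gene on the opposite strand.

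Some adaptors are best known from skeletal muscle. Of these, Klhl41 had a mean of 3.03 FPKM, Klhl31 0.553, Kbtbd13 0.272 and Klhl40 0.242 FPKM in Igf2bp3+/- RNA-seq. Klhl3 and Klhl2, which act on WNK kinases in kidney, had means of 0.608 and 0.0479 FPKM, and Klhl6, known from B cells, 0.0451 FPKM. The X-linked members differed widely: Klhl15 had a mean of 5.29 FPKM, Cul4b 5.17 and Klhl13 0.0266 FPKM.

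The genotypes were compared first in RNA-seq, which asks whether the abundance of a transcript depends on IGF2BP3. None of the 39 members tested passed (0, limma on log2(FPKM + 0.1), Benjamini-Hochberg adjusted p under 0.05), where 0.256% of all 20352 genes did. At an unadjusted p under 0.05 there were 4 members, Cul4b, Kbtbd4, Klhl10 and Cul9, against 15.7% of all genes. For 7 members no library of one genotype lay within the range of the other, against 22.7% of all genes; they were Cul4b, Kbtbd4, Klhl10, Klhl32, Klhl24, Kbtbd6 and Klhl21. Neither count of members was above its background. The median log2 difference of the members was 0.10 and that of all genes 0.05.

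Klhl10 was listed at 243.5, 268.8 and 311.1 FPKM in Igf2bp3-/- RNA-seq. Every one of these libraries lay above the Igf2bp3+/- libraries, the closest by little (243.5 against 241.7 FPKM). Its log2 difference was 0.24 ± 0.10 (SE, limma adjusted p 0.31). The difference was 0.15 without Igf2bp3-/- RNA-seq replicate 3 and 0.05 with quantile normalization. The 5 round spermatid markers also had positive differences, 5 of 5 with a median of 0.31 on the log2 scale, 0 of them called by limma, and their part in the Klhl10 value was not tested.

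Cul4b was listed at 7.48, 7.07 and 6.28 FPKM in Igf2bp3-/- RNA-seq, above all 3 Igf2bp3+/- libraries. It was the member with the smallest p in RNA-seq, at a log2 difference of 0.42 ± 0.14 (SE, limma adjusted p 0.236). Kbtbd4 was listed at 23.4, 27.7 and 24.8 FPKM, also without overlap, with a log2 difference of 0.30 ± 0.11 (SE) and a limma adjusted p of 0.25. Cul9 was listed at 9.824, 11 and 8.597 FPKM and overlapped the control; its log2 difference was -0.32 ± 0.14 (SE, limma adjusted p 0.318).

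Of the other cullins in total RNA, Cul3 was listed at 7.48, 6.97 and 8.62 FPKM in Igf2bp3-/- RNA-seq, a log2 difference of 0.08 ± 0.15 (SE) whose 95% interval ran from -0.27 to 0.42. The sign of that value turned without Igf2bp3+/- replicate 3 (-0.07) or Igf2bp3-/- replicate 3 (-0.01). Cul1 was listed at 32.0, 32.6 and 35.3 FPKM, Cul5 at 27.3, 28.7 and 33.5 FPKM, Cul4a at 6.89, 6.85 and 7.44 FPKM, and Cul2 at 4.30, 4.64 and 5.06 FPKM. Each of these 4 overlapped its control libraries. Cul7 was listed at 0.087, 0.099 and 0.189 FPKM.

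The remaining abundant adaptors overlapped between genotypes except for Klhl21 and Klhl24. Klhl21 was listed at 6.21, 6.54 and 5.88 FPKM in Igf2bp3-/- RNA-seq, all below the control, and Klhl24 at 7.06, 7.36 and 8.44 FPKM, all above. Neither had an unadjusted p under 0.05. Klhl12 was listed at 22.8, 23.7 and 25.9 FPKM, Klhl25 at 19.3, 21.6 and 19.6 FPKM and Klhl7 at 19.2, 19.3 and 22.9 FPKM. Klhl8 was listed at 14.0, 16.9 and 18.7 FPKM, Klhl11 at 14.9, 16.4 and 17.8 FPKM and Kbtbd2 at 5.53, 5.22 and 6.46 FPKM.

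In RNC-seq, which holds the transcripts on polysomes, 0 of 37 members tested differed between genotypes at a limma adjusted p under 0.05, against 0.115% of all 19051 genes. A single member had an unadjusted p under 0.05, against 6.48% of all genes, and 5 members (Cul9, Kbtbd6, Cul1, Klhl12 and Klhl3) had libraries that did not overlap, against 11.3%. The median log2 difference was 0.15 over members and 0.13 over all genes. When every library was centred on its own median, the value over all genes moved from 0.13 to 0.01 and that over members from 0.15 to 0.03, so RNC-seq differences are relative to that shift. Positive differences numbered 28 of 37 members before and 20 after centring, where 65.3% of all genes were positive before it.

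That member was Cul9. It was listed at 1.74, 2.66 and 3.00 FPKM in Igf2bp3+/- and at 3.03, 7.09 and 4.30 FPKM in Igf2bp3-/- RNC-seq. The groups did not overlap, but the lowest knockout and the highest control library were nearly equal. Its log2 difference was 0.88 ± 0.33 (SE, limma adjusted p 0.74), and 0.57 without Igf2bp3-/- RNC-seq replicate 2. Kbtbd6, which with Kbtbd7 acts on the Rac activator TIAM1, came second by p. It was listed at 3.37, 3.53 and 3.41 FPKM in Igf2bp3+/- and at 4.87, 6.15 and 3.64 FPKM in Igf2bp3-/- RNC-seq, a log2 difference of 0.46 ± 0.25 (SE, limma adjusted p 0.805). In RNA-seq it was listed at 4.64, 4.99 and 5.66 FPKM in Igf2bp3+/- and at 5.67, 5.68 and 5.96 FPKM in Igf2bp3-/-. Cul1 came next, at 16.0, 13.5 and 18.0 FPKM against 19.2, 21.9 and 18.6 FPKM, a log2 difference of 0.33 ± 0.21 (SE, limma adjusted p 0.82).

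Klhl10 was the most abundant member on polysomes too. It was listed at 250.1, 234.8 and 266.7 FPKM in Igf2bp3+/- and at 307.4, 311.1 and 262.2 FPKM in Igf2bp3-/- RNC-seq, with overlap between the genotypes. The log2 difference was 0.23 ± 0.19 (SE, limma adjusted p 0.85). Its share of the summed FPKM of all members was 53.3% to 55.3% in Igf2bp3+/- and 54.8% to 56.7% in Igf2bp3-/- RNC-seq. Cul3 was listed at 5.85, 2.96 and 7.04 FPKM against 5.34, 4.08 and 4.29 FPKM, a log2 difference of -0.13 ± 0.31 (SE) whose sign turned to 0.12 without Igf2bp3+/- replicate 3.

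Translational efficiency (TE), the RNC-seq level relative to the RNA-seq level, was compared between genotypes as the interaction of genotype and assay. Of 37 members tested, 0 passed a limma adjusted p under 0.05, where 1 of 18414 genes did (0.00543%). There were 2 members with an unadjusted p under 0.05, Cul9 and Klhl32, against 7.13% of all genes. The median log2 TE difference was -0.02 over members and 0.06 over all genes.

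The TE of Cul9 had a log2 difference of 1.20 ± 0.39 (SE), with a 95% interval from 0.37 to 2.03 and a limma adjusted p of 0.686. It combines the differences of -0.32 in RNA-seq and 0.88 in RNC-seq. Leaving out single libraries gave values between 0.88 (without Igf2bp3-/- RNC-seq replicate 2) and 1.48 (without Igf2bp3-/- RNC-seq replicate 1). Klhl32 went the other way, at -0.60 ± 0.27 (SE, limma adjusted p 0.697). It was listed in RNA-seq at 1.18, 1.29 and 1.17 FPKM in Igf2bp3+/- and 1.42, 1.55 and 1.79 FPKM in Igf2bp3-/-. In RNC-seq it was listed at 2.98, 2.26 and 2.49 FPKM and at 2.31, 1.85 and 2.34 FPKM. Klhl12 came next, at 0.41 ± 0.21 (SE, limma adjusted p 0.712).

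For Klhl10 the TE difference was -0.01 ± 0.19 (SE), with a 95% interval from -0.42 to 0.39 and a limma adjusted p of 0.986. The sign of this small value turned in 4 fits that left out a library and with quantile normalization (0.02 to 0.08). For Cul3 it was -0.20 ± 0.38 (SE), with an interval from -1.01 to 0.60, and 0.05 without Igf2bp3+/- RNC-seq replicate 3.

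**Figure D2:**
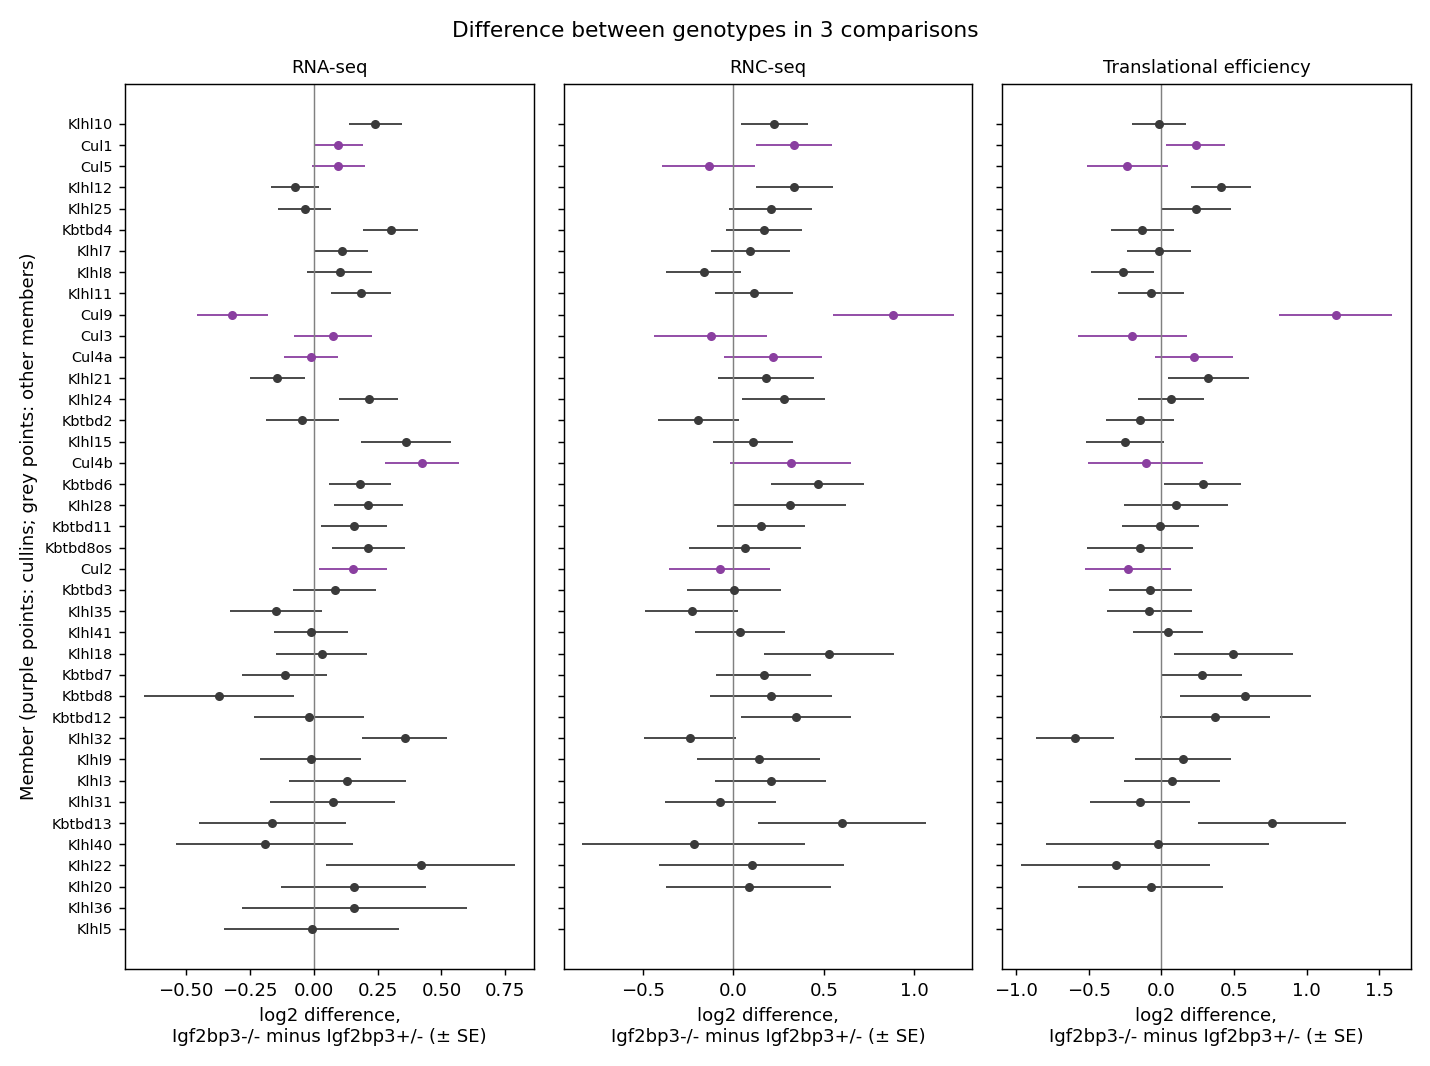
Log2 difference between genotypes (Igf2bp3-/- minus Igf2bp3+/-, with SE) for every member tested in RNA-seq (39), RNC-seq (37) and TE (37), with cullins in purple; the horizontal scales of the panels differ. No member passed the adjusted limit in any panel, and Cul9 lies farthest from 0 in the RNC-seq and TE panels, at 0.88 and 1.20.

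More members were called between the assays than between the genotypes, and the same held over all genes. Of 18414 genes, 8059 were called between the assays in Igf2bp3+/- and 4886 in Igf2bp3-/-. Between the genotypes 52 genes were called in RNA-seq, 22 in RNC-seq and 1 in TE. Polysome loading, the log2 difference of RNC-seq and RNA-seq within a genotype, was tested over the same 12 libraries. FPKM is scaled within each library, so loading is relative to the other transcripts and not a share of molecules. A single entry, CT010467.1, held 9.21% to 13.3% of FPKM in Igf2bp3+/- RNA-seq and 15.9% to 19.4% in RNC-seq. In Igf2bp3-/- it held 5.67% to 9.24% and 8.14% to 14.6%, and its part in the loading values was not tested. In Igf2bp3+/- cells 3 of 37 members were higher on polysomes (18.6% of all 18414 genes were) and 15 were lower (25.2% of all genes were), at a limma adjusted p under 0.05. The median was -0.28 over members and -0.10 over all genes. With each library centred on its median the value of all genes moved from -0.10 to 0.07, and the split became 5 higher and 11 lower members.

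All 7 cullins tested had negative loading, as did 10128 of all 18414 genes. The test was passed by 5 of the 7, namely Cul9, Cul4a, Cul1, Cul5 and Cul2, where 25.2% of all genes were lower. The median log2 loading of the 7 was -0.66, against -0.16 for the 30 Klhl and Kbtbd genes tested, Kbtbd8os among them. All 7 stayed negative with every scaling, filter and left-out library tried. The summed level of the cullins was 97.2, 97.9 and 90.5 FPKM in RNA-seq and 55.2, 37.0 and 60.9 FPKM in RNC-seq of Igf2bp3+/-, without overlap. Without Igf2bp3+/- RNC-seq replicate 2, the library with the lowest sum, the median cullin loading was -0.44 with 4 of 7 called, and without replicate 3 it was -0.79 with 7 of 7 called.

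Cul9 had the lowest loading of all members, from 10.7 to 14.1 FPKM in RNA-seq to 1.74 to 3.00 FPKM in RNC-seq, a log2 difference of -2.29 ± 0.27 (SE, limma adjusted p 3.84e-05). Cul4a fell to 2.76, 1.97 and 2.99 FPKM in RNC-seq, a log2 difference of -1.45 ± 0.19 (SE, limma adjusted p 7.44e-05). Cul1 had a loading of -0.98 ± 0.14 (SE, limma adjusted p 0.000156). Cul5, at 21.7, 11.8 and 21.1 FPKM in RNC-seq, had -0.66 ± 0.20 (SE, limma adjusted p 0.016). None of these 4 overlapped between assays, which held for 21 of the 37 members and for 55.6% of all genes. Exons on the opposite strand share 4.75% of the exonic bases of Cul1 and 1.35% of those of Cul5.

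The call for Cul2 was the least secure of the 5. Cul2 was listed at 2.74, 2.04 and 3.39 FPKM in RNC-seq, a log2 loading of -0.63 with a limma adjusted p of 0.0265. It became -0.46 with an adjusted p of 0.0872 when libraries were centred and -0.50 with 0.0615 after quantile normalization. It also missed the limit without Igf2bp3+/- RNA-seq replicate 2 (-0.63, adjusted p 0.0627) or 3 (-0.55, 0.0942), or without RNC-seq replicate 1 (-0.65, 0.0547) or 2 (-0.44, 0.101). Cul3 had a loading of -0.54 ± 0.27 (SE, limma adjusted p 0.116), and Cul4b, at 4.40, 2.02 and 5.47 FPKM in RNC-seq, -0.48 ± 0.28 (SE) with 0.183. Both passed the limit without Igf2bp3+/- RNC-seq replicate 3, at -0.79 and -0.76 (adjusted p 0.0333 and 0.0414).

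No test compared the loading of Klhl10 with that of the cullins. In the main fit 12 of the 30 Klhl and Kbtbd genes tested had positive loading (40%, against 45% of all genes), Klhl10 among them. Its value was 0.11 ± 0.13 (SE), with a 95% interval from -0.17 to 0.40 and a limma adjusted p of 0.514, and it was -0.25 after quantile normalization. The ratio of Klhl10 to Cul3 was 42.8, 79.3 and 37.9 in Igf2bp3+/- RNC-seq, where it had been 27.1, 29.0 and 40.9 in RNA-seq, with overlap between the assays.

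**Figure D3:**
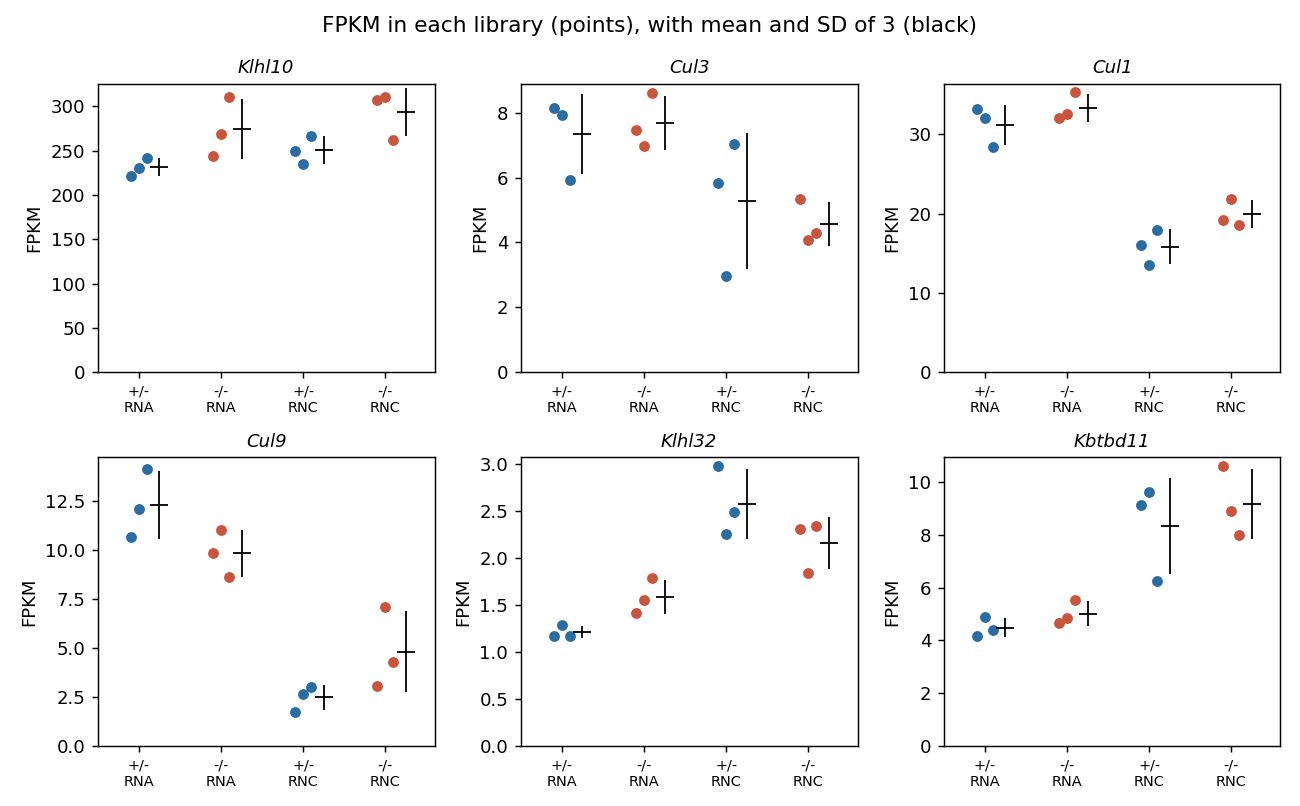
FPKM of Klhl10, Cul3, Cul1, Cul9, Klhl32 and Kbtbd11 in each of the 12 libraries (blue Igf2bp3+/-, red Igf2bp3-/-; RNA is RNA-seq, RNC is RNC-seq), with the mean and SD of 3 libraries in black and each axis starting at 0. In Igf2bp3+/-, Cul1 and Cul9 are lower in RNC than in RNA without overlap, Klhl32 and Kbtbd11 are higher, and Klhl10 overlaps (221.5 to 241.7 against 234.8 to 266.7 FPKM).

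Of the adaptors, 3 were higher on polysomes in Igf2bp3+/- cells. Klhl32 rose from 1.17 to 1.29 FPKM in RNA-seq to 2.26 to 2.98 FPKM in RNC-seq, by 1.02 ± 0.19 (SE) on the log2 scale with a limma adjusted p of 0.000873. Kbtbd11 rose from 4.17, 4.89 and 4.39 FPKM to 9.15, 9.64 and 6.26 FPKM, by 0.86 ± 0.19 (SE, limma adjusted p 0.00234). The X-linked Klhl15, an adaptor for a regulatory subunit of protein phosphatase, rose from 4.999, 4.874 and 6.003 FPKM to 8.19, 7.29 and 10.3 FPKM, by 0.68 ± 0.19 (SE, limma adjusted p 0.0104). None of these 3 genes had libraries that overlapped between assays. Kbtbd11 is uncertain over 24.8% of its exonic bases (Gm37844, opposite strand) and Klhl32 over 1.51%.

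The other 10 of the 15 lower members were adaptors. The largest falls among them were those of Klhl18 and Klhl9, adaptors that act on Aurora kinases, and of Kbtbd8. Klhl18 fell from 2.17, 3.09 and 2.91 FPKM to 0.735, 1.25 and 0.779 FPKM, a log2 loading of -1.49 ± 0.29 (SE, limma adjusted p 0.00111). Klhl9 fell from 0.888, 1.05 and 0.898 FPKM to 0.459, 0.369 and 0.362 FPKM, a loading of -1.08 ± 0.23 (SE, limma adjusted p 0.0023). It is uncertain over 15.8% of its exonic bases.

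Kbtbd8, known from neural crest formation, fell from 1.78, 2.15 and 1.57 FPKM to 0.547, 1.03 and 1.12 FPKM, a loading of -0.99 ± 0.32 (SE, limma adjusted p 0.0225). That call was lost with centring (-0.82, adjusted p 0.0584), with quantile normalization (-0.78, 0.0726), without Igf2bp3+/- RNA-seq replicate 2 (-0.88, 0.0796) and without RNC-seq replicate 1 (-0.71, 0.108). The noncoding Kbtbd8os beside it was listed at 4.73, 3.67 and 4.94 FPKM in RNA-seq and at 5.97, 3.90 and 5.34 FPKM in RNC-seq, a loading of 0.18 ± 0.26 (SE, limma adjusted p 0.616).

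Several of the most abundant adaptors were among the lower ones. Klhl12 was listed at 14.5, 14.4 and 15.4 FPKM in RNC-seq, Klhl25 at 10.9, 12.8 and 14.2 FPKM and Klhl7 at 11.8, 9.76 and 13.7 FPKM. None of these overlapped RNA-seq, and their loadings were -0.78, -0.71 and -0.69. Klhl21, at 3.96, 5.18 and 3.85 FPKM in RNC-seq, had a loading of -0.66 (limma adjusted p 0.0151). Klhl41, Kbtbd7 and Kbtbd6 had -0.67, -0.66 and -0.55 (limma adjusted p 0.00601, 0.0138 and 0.0278). The call for Kbtbd6 was lost with centring, with quantile normalization and without Igf2bp3+/- RNA-seq replicate 2 or 3 or RNC-seq replicate 1 or 3. That for Klhl21 was lost with centring and without Igf2bp3+/- RNC-seq replicate 1 or 3, and that for Kbtbd7 without Igf2bp3+/- RNA-seq replicate 2. Klhl24, at 5.24, 4.71 and 6.30 FPKM, and Klhl11, at 12.7, 12.5 and 13.3 FPKM, did not pass, with -0.28 and -0.16.

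On the other side, Kbtbd4 and Klhl8 lay above RNA-seq in every RNC-seq library without passing. Kbtbd4 was listed at 26.7, 24.1 and 28.9 FPKM and Klhl8 at 20.9, 18.1 and 20.2 FPKM, loadings of 0.37 and 0.36 with limma adjusted p of 0.0652 and 0.07. Both passed when libraries were centred. Kbtbd2, at 6.43, 5.74 and 6.46 FPKM, overlapped RNA-seq, with a loading of 0.07.

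Coding length was set beside loading as a description. Among the 37 members tested for loading, 36 had a coding length. Across these genes, log2 coding length and loading in Igf2bp3+/- had a Spearman rho of -0.0102 and a Pearson r of -0.497. These are correlations across genes that share the same libraries, and Cul9, at 7590 coding bases the longest of them, is an extreme point on both axes.

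In Igf2bp3-/- cells the same contrast called 1 member higher (12.5% of all genes were) and 9 lower (14.0% of all genes were) at a limma adjusted p under 0.05. The 1 higher member, Kbtbd11, was also higher in Igf2bp3+/-, and the 9 lower members were 9 of 9 of this list and 9 of the 15 in Igf2bp3+/-. The 9 were Cul1, Cul2, Cul4a, Cul5, Cul9, Klhl18, Klhl41, Klhl7 and Klhl9. The call for Klhl18 was lost without Igf2bp3-/- replicate 1 or 2 of RNA-seq or replicate 1 or 3 of RNC-seq, and those for Klhl41 and Klhl9 without RNA-seq replicate 2. Among the adaptors called in Igf2bp3+/-, Klhl18 was listed in Igf2bp3-/- at 2.98, 2.96 and 2.38 FPKM in RNA-seq and at 1.01, 2.19 and 1.06 FPKM in RNC-seq, and Klhl9 at 0.859, 1.14 and 0.830 FPKM and at 0.519, 0.399 and 0.424 FPKM. Neither overlapped between assays, as was so for 18 of 37 members and 40.7% of all genes. Kbtbd8, at 1.78, 1.80 and 0.813 FPKM and at 1.23, 1.02 and 0.826 FPKM, did overlap, with a loading of -0.41 (limma adjusted p 0.369). Kbtbd11 was listed at 4.66, 4.84 and 5.55 FPKM and at 10.6, 8.90 and 8.02 FPKM, a loading of 0.85 ± 0.19 (SE, limma adjusted p 0.00515). Klhl15, at 5.98, 5.95 and 8.81 FPKM and at 9.39, 8.70 and 9.49 FPKM, overlapped between assays and did not pass, with 0.43 (limma adjusted p 0.111). Klhl32 did not overlap but did not pass either, with 0.42 (limma adjusted p 0.12). A gene called in one genotype only is not thereby shown to differ: the TE comparison above tested that, and no member passed.

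The cullins again had negative loading, 7 of 7 with a median of -0.86 against -0.04 for all genes. Of all 18414 genes, 9604 had negative loading in Igf2bp3-/-. In Igf2bp3-/- RNC-seq, Cul4a was listed at 3.65, 2.85 and 2.51 FPKM, Cul5 at 15.6, 15.6 and 16.6 FPKM, Cul2 at 2.099, 3.109 and 2.466 FPKM and Cul4b at 4.88, 4.29 and 4.58 FPKM. Every one of these values lay below the RNA-seq libraries of the same genotype. Cul9 had a loading of -1.09 ± 0.27 (SE) in Igf2bp3-/-, against -2.29 in Igf2bp3+/-. Cul3 had -0.74 with a limma adjusted p of 0.0534. The 8th cullin, Cul7, was listed at 0 in 2 Igf2bp3+/- RNC-seq libraries and 0.00726 FPKM in the other, and at 0.0578, 0.0353 and 0 FPKM in Igf2bp3-/-.

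Klhl10 had a loading of 0.10 ± 0.13 (SE) in Igf2bp3-/- cells. In Igf2bp3-/- RNC-seq, Klhl12 was listed at 18.2, 22.5 and 15.9 FPKM, Klhl25 at 15.3, 17.2 and 11.6 FPKM, Kbtbd4 at 25.8, 36.0 and 28.3 FPKM and Klhl7 at 11.9, 13.6 and 11.8 FPKM. Klhl8 was listed at 19.6, 18.0 and 15.3 FPKM, Klhl11 at 12.6, 17.2 and 12.4 FPKM, Klhl21 at 5.97, 5.46 and 3.54 FPKM, Klhl24 at 6.85, 7.01 and 5.84 FPKM and Kbtbd2 at 4.802, 6.094 and 5.398 FPKM. Of these 9, only Klhl7 passed the loading test in Igf2bp3-/-.

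**Figure D4:**
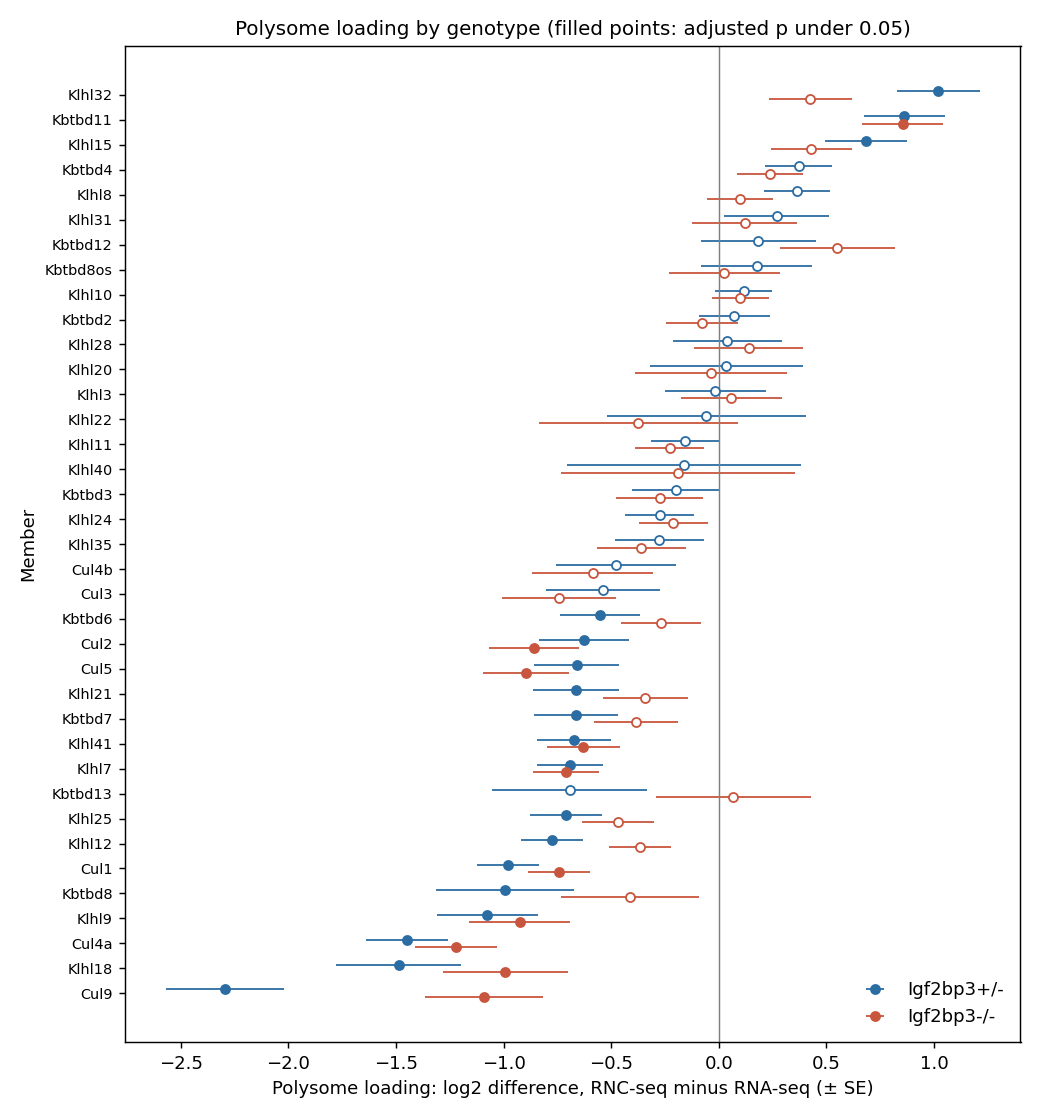
Polysome loading (log2 difference, RNC-seq minus RNA-seq, with SE) of the 37 members tested, in Igf2bp3+/- (blue) and Igf2bp3-/- (red), ordered by the Igf2bp3+/- value; filled points passed a limma adjusted p under 0.05. All 7 cullins lie left of 0 in both genotypes, from -2.29 (Cul9) to -0.48 (Cul4b) in Igf2bp3+/-, while Klhl10 lies at 0.11 and 0.10. Of all 18414 genes, 10128 had negative loading in Igf2bp3+/- and 9604 in Igf2bp3-/-.

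The partners of the cullins were read from 3 lists: a core list (RING partners, adaptors, the NEDD8 pathway, CAND proteins and the COP9 signalosome, 29 genes tested), other BTB adaptors of CUL3 (19 tested) and substrate receptors of other cullins (21 tested). In RNA-seq, RNC-seq and TE, 0 genes of each list passed the limma adjusted limit between genotypes. At an unadjusted p under 0.05 the core list had 4, 0 and 1 genes in the 3 comparisons, the BTB list 0, 1 and 0, and the receptor list 1, 1 and 2, where the shares over all genes were 15.7%, 6.48% and 7.13%. The median log2 differences in RNA-seq were 0.18 for the core list, 0.02 for the BTB list and 0.08 for the receptor list, beside 0.05 over all genes.

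By smallest p in RNA-seq, the core list was led by the signalosome subunits Cops4 (0.33 ± 0.09, SE) and Cops7a (0.24), the BTB list by Rhobtb3 (0.45) and Kctd5 (-0.35), and the receptor list by Crbn (0.35) and Klhdc2 (0.26), all log2 differences. In RNC-seq these were Ube2m (0.45) and Cops6 (0.41), Btbd6 (0.86) and Ivns1abp (0.32), and Klhdc3 (0.72) and Dcaf1 (0.57). In TE they were Ube2m (0.76) and Rnf7 (-0.39), Rhobtb2 (0.80), and Dcaf1 (0.73) and Crbn (-0.64). None of these reached the limit, with limma adjusted p of 0.183 or more.

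In polysome loading of Igf2bp3+/- the core list had 9 genes higher and 5 lower of 29, with a median log2 loading of 0.11, where 18.6% of all genes were higher and 25.2% lower. Rnf7, the RING partner of CUL5, rose by 1.65 ± 0.16 (SE, limma adjusted p 8.95e-06), whereas Ube2m, which loads NEDD8 onto cullins, had a loading of -1.46 ± 0.18 (SE, limma adjusted p 4.55e-05). Rbx1, the RING partner of most cullins, was looked up after these values were seen; its loading was 1.24 ± 0.23 (SE, limma adjusted p 0.000795). The BTB list had 1 gene higher and 7 lower of 19 (median -0.34), led by Btbd1 (-2.096 ± 0.20) and Rhobtb3 (1.87 ± 0.30). The receptor list had 2 higher and 6 lower of 21 (median -0.36), led by Dcaf1 (-1.92 ± 0.21) and Ercc8 (0.88 ± 0.13).

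In Igf2bp3-/- the loading counts were 5 higher and 4 lower for the core list, 1 and 4 for the BTB list, and 2 and 5 for the receptor list, beside 12.5% of all genes higher and 14.0% lower. Rnf7 had a loading of 1.26 ± 0.16 (SE) and Ddb1, the adaptor of CUL4, had -0.98 ± 0.17. Btbd1 had -1.93 and Rhobtb3 1.74, and Ercc8 had 0.78 and Dcaf1 -1.19, each past the limma limit. Genes of these lists named here are uncertain over the part of their exons shared with an opposite-strand gene, which was 10.6% for Klhdc3, 5.13% for Ivns1abp, 5.12% for Ddb1, 3.05% for Klhdc2, 2.84% for Dcaf1, 2.53% for Cops6 and 2.06% for Crbn.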

How the data were processed

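FPKM per gene symbol and library came from the authors' deposited table, which was made by trimming with Trim Galore 0.6.6, alignment to GRCm38 with HISAT2 and quantification with StringTie 2.1.7 (per the labels and the study's methods). The annotation release and the use of strand were not stated, and labels and methods name different library kits and instruments. Of 28668 symbols, 25 had become dates and were left out (0.0995% of FPKM). Columns headed WT are Igf2bp3+/- by the labels. The table gives no counts, so absolute depth is unknown.

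Values were analysed as log2(FPKM + 0.1), a scale that understates changes of low genes, with limma 3.58.1 (R 4.3.3, intensity trend, two-sided, Benjamini-Hochberg over all genes). Genes needed a mean FPKM above 0.1 in the assay, or in both assays for TE and loading. RNA-seq and RNC-seq were fitted over 6 libraries each, and TE and loading over all 12. The code was tested on simulated data. Labels call the replicates biological, and p-values set each difference against the spread between these libraries. In TE and loading the 12 libraries were taken as independent, although each extract gave both assays. Members and gene lists were chosen with earlier results of these data known. Named were all cullins, the 10 most abundant adaptors, the 3 smallest p per genotype comparison, up to 5 members with the largest loading per direction, and 2 genes per list, of which 1 value is not reported here. Positions and exon overlap came from GENCODE M21, which matched all 47 members, and promoters from RefSeq. Alternatives were another pseudocount and filter, no filter, centring, quantile normalization, a replicate block, an unadjusted rule and leaving out each library.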

Additional observations from a re-analysis of the deposited data

How the results depend on the processing

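Where a value moved, the cause was not tested. The genotype counts stayed at 0 members in RNA-seq, RNC-seq and TE under every alternative but one: dropping the adjustment and adding a fold limit together (unadjusted p under 0.05, change of more than 1.5-fold) gave 0 in RNA-seq, 1 in RNC-seq (Cul9) and 2 in TE (Cul9 and Klhl32). Higher loading in Igf2bp3+/- went from 3 to 5 members with centring (Kbtbd4 and Klhl8 added), and in Igf2bp3-/- from 1 to 2 with quantile normalization (Klhl32 added). Leaving out each library gave 3 to 4 higher and 11 to 15 lower members in Igf2bp3+/-, and 1 to 2 higher (2 without Igf2bp3-/- RNA-seq replicate 3, which added Klhl15) and 6 to 11 lower in Igf2bp3-/-. In all 12 such fits, 3 higher and 10 lower members of Igf2bp3+/- and 1 higher and 6 lower of Igf2bp3-/- remained. Leaving out a library of the other genotype does not move a loading estimate, so such fits are a weaker check. Of the recomputed values of members named by rule, 426 kept direction and side of the limit and 10 turned sign. Another 10 lost a call (Cul2 and Kbtbd8) and 2 gained one (Cul3 and Cul4b), all of these calls in Igf2bp3+/- loading. Igf2bp3-/- loading was not among these values, and no member was called between genotypes in the main fits. A call could therefore be lost only in Igf2bp3+/- loading.

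Signs turned for 5 values. Leaving out single libraries gave Cul3 -0.071 to 0.158 in RNA-seq (-0.008 without Igf2bp3-/- replicate 3), -0.490 to 0.121 in RNC-seq and -0.566 to 0.046 in TE, and Klhl10 -0.097 to 0.079 in TE (0.016, 0.031 and 0.065 in other such fits). Quantile normalization gave Klhl10 0.038 in TE and -0.247 in Igf2bp3+/- loading.

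Each extract gave both assays, but whether replicate numbers match between assays is not stated, and the main fits did not pair them. Deviations from the group means correlated between assays at the same replicate number by -0.104 to 0.205 (4 of 6 best with their own number). Between genotypes the correlations were -0.083 to 0.241. These values do not settle whether the numbers are pairs. With a replicate block the counts were 0 in RNA-seq, RNC-seq and TE, 3 higher and 15 lower in Igf2bp3+/- loading and 1 and 9 in Igf2bp3-/-; over all genes it gave 4 calls in RNA-seq in place of 52, 31 in RNC-seq in place of 22 and 0 in TE in place of 1. Other counts over all genes were 13 in RNA-seq without a filter and 9 to 38 without single libraries, and in RNC-seq 13 without a filter or with centring, 12 with quantile normalization and 0 to 20 without single libraries in place of 22. In TE they were 0 to 4 in place of 1. The 8 members under the filter in RNA-seq and 10 in RNC-seq were all compared when no filter was used. This added Cul7, Klhl26, Klhl29 and Klhl30 to the lower members in Igf2bp3+/- loading (19 in place of 15), and in Igf2bp3-/- it gave 10 in place of 9, adding Cul7 and Klhl26 and losing Klhl18. Their levels are near the pseudocount.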
